A study of Homo sapiens with 4 samples.

Results

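The genes described here are HBZ, CA2, GYPB and EPB42, which belong to the red-cell programme. They were chosen by symbol with earlier results of these data known, and all 4 had a row among the 3200 rows of the expression table. Poly-A RNA was sequenced in 4 libraries of K562, a human line established from chronic myeloid leukaemia and bearing the BCR-ABL fusion gene. The R-Exo library was labelled as K562 cells exposed to R-Exo, which the series title relates to exosomes (small vesicles that cells release) of imatinib-resistant cells. The resistant library came from the imatinib-resistant line K562/IMR, given no vesicles; imatinib inhibits the BCR-ABL kinase. The S-Exo library was labelled as K562 cells exposed to S-Exo, the vesicle control of the design, and the parental library came from K562 cells labelled wild type and given no vesicles. Both exposures lasted 48 h, and all cells were grown in RPMI medium with serum. The sources used here do not say how the resistant line was selected or whether it is 1 clone.

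HBZ encodes zeta-globin, the embryonic alpha-like chain of haemoglobin, which alpha-globin replaces as development goes on. GYPB encodes glycophorin B, a sialic acid-rich surface protein of red cells that carries the S and s blood group antigens. EPB42 encodes protein 4.2, which ties the anion exchanger band 3 to the membrane skeleton, and CA2 encodes carbonic anhydrase II, which hydrates carbon dioxide in red cells and in several other tissues. K562 cells are known to make embryonic and fetal globins and can be pushed further along the red-cell path by inducers such as haemin.

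Each group had 1 library, so no difference below has a replicate check and no p-value was computed. Levels are FPKM as deposited (fragment counts corrected for gene length and for library size), a scale on which genes can be compared with each other. The table is named as one of differentially expressed genes, so its rows had already been selected for differing. The listed rows summed to between 21405 and 23833.8 FPKM per library, and the read depth is unknown. The libraries fell into 2 pairs across all 3200 rows, with Pearson's r of log2(FPKM + 1) at 0.974 between R-Exo and resistant, at 0.977 between S-Exo and parental, and between 0.729 and 0.736 in the other pairs. ABCB1, the drug efflux pump gene, had 677 FPKM in R-Exo, 778 in resistant, 0.0985 in S-Exo and 0.222 in parental. The R-Exo library therefore stood with the resistant line and apart from the K562 line it is labelled as. An effect of vesicles and the presence of resistant-line RNA in that library cannot be told apart here, and this applies to every R-Exo value below.

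All 4 genes were higher in the R-Exo and resistant libraries than in the S-Exo and parental libraries. HBZ had by far the highest level of the 4 in every library, and GYPB came next in every library. CA2 was above EPB42 in R-Exo and resistant and below it in S-Exo and parental. With 1 library per group, no spread was available against which to judge the distance between neighbours in that order. A difference was taken as log2(FPKM + 1) in the first-named library minus the same in the second, and a gene was counted as higher or lower where this was at least 1 in size and either library had at least 1 FPKM. Between resistant and parental, 4 of the 4 genes were counted as higher, where 28.0% of the 2151 genes compared were. Between R-Exo and S-Exo it was again 4 of 4, against 23.2% of 2154 genes. The genes had been chosen with these differences known, so the counts are descriptions.

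**Figure D1:**
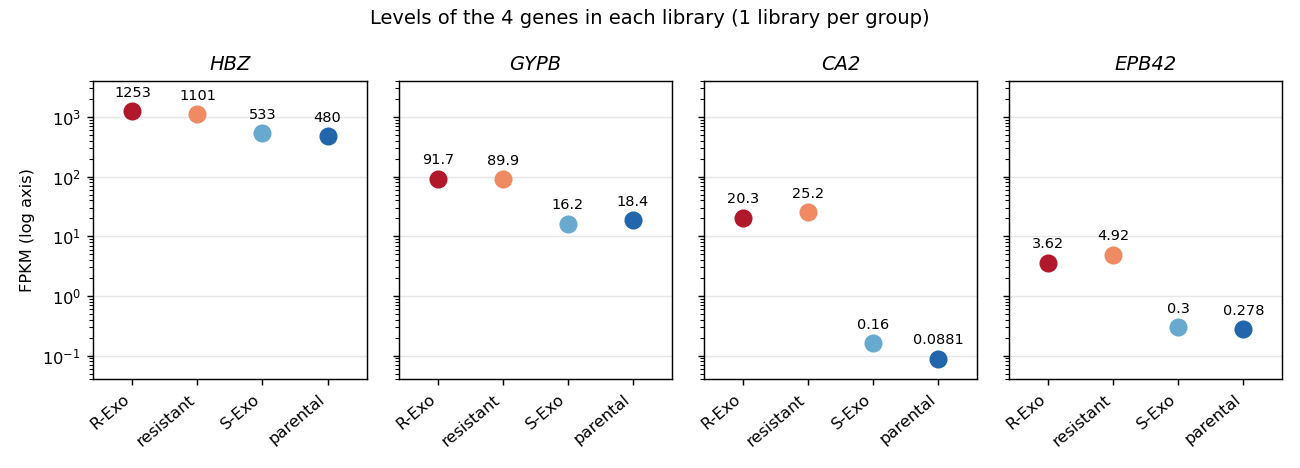
FPKM (log axis) of HBZ, GYPB, CA2 and EPB42, 1 panel per gene and 1 point per library, in the order R-Exo, resistant, S-Exo, parental. In every panel the R-Exo and resistant points lie above the S-Exo and parental points, by the least in HBZ (1253 and 1101 against 533 and 480) and by the most in CA2 (20.3 and 25.2 against 0.160 and 0.0881).

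Embryonic globin was abundant in all 4 libraries and more so in the resistant and R-Exo libraries. HBZ (ENSG00000130656) lies on the plus strand of chromosome 16 at 152687 to 154503 in GRCh38, at the embryonic end of the alpha-globin cluster. It had 1253 FPKM in R-Exo, 1101 in resistant, 533 in S-Exo and 480 in parental. It ranked first of all rows in R-Exo and in resistant, and held rank 4 in S-Exo and rank 5 in parental. HBZ was 2.29-fold higher in resistant than in parental, a log2 difference of 1.20. It was 2.35-fold higher in R-Exo than in S-Exo, a log2 difference of 1.23.

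The shift of HBZ was modest beside those of the other 3 genes, and its place past the limit depended on how the libraries were scaled. The median difference over all compared genes was 0.42 between resistant and parental and 0.21 between R-Exo and S-Exo. Relative to that median, HBZ differed by 0.78 between resistant and parental, below the limit, and by 1.02 between R-Exo and S-Exo. After quantile normalization the same differences were 0.99 and 0.80. Both scalings rest on rows selected for differing, so neither gives a known baseline, here or where re-scaled counts are given below. Among 50-base stretches of the HBZ protein-coding transcripts in GENCODE release 29, 43.6% also occur in the pseudogene HBZP1 and 22.1% in transcripts of HBM, the mu-globin gene, whose model overlaps HBZ by 612 bases on the same strand. The sources used here do not say how the authors' counting divided such reads, so the HBZ level is uncertain to that extent.

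The other listed globin-chain genes did not pass the limit. HBD, the delta chain of adult haemoglobin A2, had 19.2 FPKM in R-Exo, 19.4 in resistant, 11.2 in S-Exo and 9.78 in parental. It was 1.98-fold higher in resistant than in parental (log2 difference 0.92) and 1.71-fold higher in R-Exo than in S-Exo (0.73), neither past the limit. HBZ exceeded HBD 65.4-fold in R-Exo, 56.8-fold in resistant, 47.6-fold in S-Exo and 49.1-fold in parental. AHSP, the chaperone that binds free alpha-globin, had 1.88 FPKM in R-Exo, 1.11 in resistant, 0.559 in S-Exo and 0.962 in parental. Its ratio of R-Exo to S-Exo, 3.37, was above the 2.35 of HBZ, but at this low level the log2 difference was 0.89. The other 8 genes of the globin list, among them the alpha, gamma and epsilon chains, were not among the rows analysed here. Of the 5 protein-coding genes on each side of HBZ, only RHBDF1, an inactive rhomboid protease gene, had a row, with 4.62 FPKM in R-Exo, 4.56 in resistant, 2.53 in S-Exo and 2.78 in parental (log2 difference of resistant minus parental 0.56).

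GYPB and its paralog GYPE were both higher in the R-Exo and resistant libraries. GYPB (ENSG00000250361) lies on the minus strand of chromosome 4 at 143996104 to 144019345 in GRCh38, next to GYPE. It had 91.7 FPKM in R-Exo, 89.9 in resistant, 16.2 in S-Exo and 18.4 in parental. The ratio of resistant to parental was 4.90 (log2 difference 2.23) and that of R-Exo to S-Exo was 5.67 (log2 difference 2.43). GYPE, which encodes a glycophorin, had 51.6 FPKM in R-Exo, 56.5 in resistant, 12.3 in S-Exo and 12.5 in parental, 4.53-fold higher in resistant than in parental.

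The proportion of the pair differed little beside its level. GYPB stood to GYPE as 1.78 in R-Exo, 1.59 in resistant, 1.32 in S-Exo and 1.47 in parental. Summed over both genes, the level was 143 FPKM in R-Exo, 146 in resistant, 28.5 in S-Exo and 30.8 in parental. Paralogs can share reads: 15.4% of the 50-base stretches of the GYPB protein-coding transcripts occur in transcripts of other genes, and 2.71% in those of GYPE. How the authors' counting divided shared reads is not stated, so GYPB and GYPE are not taken here as independent observations. The non-coding model AC139713.2 spans all 23242 bases of GYPB on the opposite strand, introns included. Overlap of exons was not examined. Where exons coincide, reads of the 2 models cannot be told apart without strand information.

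The likeness of the family extends to the sequence before the genes. The GYPB and GYPE promoter windows are shown because these neighbours differed together between the libraries. The window of EPB42, which lies on another chromosome, is added, and no window is shown for HBZ or CA2. The windows were read from RefSeq (GRCh38.p14), minus strand, 5′ to 3′, cut to the bases outside the GENCODE gene model. The GYPB window is chr4:144019346-144019595, the GYPE window is chr4:143905564-143905809, and the EPB42 window is chr15:43221126-43221268. Capitals mark the word AGATAA as well as the word AGATAG, the word TGATAA and also the word TGATAG, on either strand, the core that GATA factors are known to bind.
GYPB: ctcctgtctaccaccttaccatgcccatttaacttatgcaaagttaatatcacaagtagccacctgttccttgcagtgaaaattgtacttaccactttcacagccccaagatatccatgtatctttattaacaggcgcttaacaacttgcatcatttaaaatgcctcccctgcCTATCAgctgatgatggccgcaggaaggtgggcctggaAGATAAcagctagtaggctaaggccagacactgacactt
GYPE: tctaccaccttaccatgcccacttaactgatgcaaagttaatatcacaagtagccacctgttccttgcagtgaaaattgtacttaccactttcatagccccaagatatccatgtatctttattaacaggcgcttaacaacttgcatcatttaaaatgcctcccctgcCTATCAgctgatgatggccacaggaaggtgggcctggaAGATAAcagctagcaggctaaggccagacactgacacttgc
EPB42: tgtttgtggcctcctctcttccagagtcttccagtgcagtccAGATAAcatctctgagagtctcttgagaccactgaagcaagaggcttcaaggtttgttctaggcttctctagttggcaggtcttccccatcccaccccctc

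The GYPB and GYPE windows matched at 239 of 244 aligned bases (98.0%), with no inner gap. Both windows held AGATAA and the reverse-strand word CTATCA, and the EPB42 window held 1 AGATAA. Such a word occurs in 22.3% of all 35116 RefSeq promoter windows of 250 bases and in 15.1% of windows of 143 bases. The pattern CCNCNCCC on either strand, a core known to be bound by KLF factors, was found 1 time in the EPB42 window and was not found in the GYPB and GYPE windows. It occurs in 53.4% of all windows of 250 bases and in 32.9% of windows of 143 bases, the length of the EPB42 window. Among the compared erythroid genes described below that had a promoter window of 250 bases, a GATA word was found in 4 of 9 genes counted as higher in resistant than in parental, in 3 of 4 counted as lower and in 5 of 9 counted as neither, against 26.2% of all 27305 genes. The 4 higher genes with a GATA word include GYPB, GYPE and EPB42, whose windows are shown above. A match in such a window is a description of letters and was not tested as a binding site.

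The membrane skeleton gene EPB42 was low everywhere, and its plain ratios were larger than those of GYPB. EPB42 (ENSG00000166947) lies on the minus strand of chromosome 15 at 43197227 to 43221125 in GRCh38. It had 3.62 FPKM in R-Exo, 4.92 in resistant, 0.300 in S-Exo and 0.278 in parental. That is 17.7-fold higher in resistant than in parental and 12.1-fold higher in R-Exo than in S-Exo. These ratios rest on denominators of 0.278 and 0.300 FPKM, whose read counts are unknown. On the log2(FPKM + 1) scale, which understates differences of low genes, the EPB42 differences were 2.21 and 1.83, against 2.23 and 2.43 for GYPB. With a pseudocount of 0.1 they were 3.73 and 3.22 for EPB42, against 2.29 and 2.50 for GYPB. Of the 50-base stretches of the EPB42 protein-coding transcripts, 13.2% also occur in AC068724.4, an overlapping non-coding model on the same strand.

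SLC4A1, which encodes band 3, the anion exchanger that protein 4.2 binds, moved the same way. It had 6.62 FPKM in R-Exo, 7.70 in resistant, 1.29 in S-Exo and 0.983 in parental, and was 7.83-fold higher in resistant than in parental (log2 difference 2.13). EPB42 stood to SLC4A1 as 0.547 in R-Exo, 0.639 in resistant, 0.232 in S-Exo and 0.283 in parental. The other listed skeleton genes were on the opposite side. DMTN, the actin-bundling protein dematin, had 9.72 FPKM in resistant and 21.1 in parental and was counted as lower (log2 difference -1.05). ADD3, gamma-adducin, had 8.79 FPKM in resistant and 15.9 in parental (-0.79, not past the limit), and 6.52 in R-Exo against 15.6 in S-Exo (-1.14, counted as lower). None of the 10 protein-coding genes closest to EPB42, 5 on each side, had a row in the table.

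CA2 showed the largest difference of the 4 genes in both pairs. CA2 (ENSG00000104267) lies on the plus strand of chromosome 8 at 85463852 to 85481493 in GRCh38. It had 20.3 FPKM in R-Exo and 25.2 in resistant, against 0.160 in S-Exo and 0.0881 in parental. The log2 difference was 4.59 between resistant and parental, rank 8 of 2151 compared genes, and 4.20 between R-Exo and S-Exo, rank 13 of 2154. The plain ratios, 286 and 127, rest on denominators near 0 whose read counts are unknown. None of the 50-base stretches of the CA2 protein-coding transcripts occurs in a transcript of another gene read in the same sense. The antisense model CA3-AS1 overlaps the CA2 model by 1064 bases on the opposite strand, introns included. Where exons coincide there, which was not examined, reads cannot be told apart without strand information.

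The carbonic anhydrase family split in direction, also within the cluster that holds CA2. CA1, carbonic anhydrase I, the most abundant form of adult red cells, had 98.6 FPKM in R-Exo, 101 in resistant, 24.2 in S-Exo and 27.0 in parental, 3.72-fold higher in resistant than in parental. CA1 exceeded CA2 4.85-fold in R-Exo and 3.99-fold in resistant, against 151-fold in S-Exo and 307-fold in parental. CA3, the muscle form, lies between CA1 and CA2 and had 0.291 FPKM in R-Exo, 0.601 in resistant, 1.92 in S-Exo and 2.11 in parental. It was 3.50-fold lower in resistant than in parental (log2 difference -0.96, not past the limit) and counted as lower in R-Exo against S-Exo (-1.18). The models of CA1 and CA3 overlap by 5579 bases on opposite strands, introns included. Where their exons coincide, which was not examined, their reads cannot be told apart without strand information. CA8, a relative without enzyme activity, lies elsewhere on chromosome 8 and had 20.7 FPKM in R-Exo, 22.8 in resistant, 0.143 in S-Exo and 0.201 in parental. The mitochondrial form CA5B had 1.72 FPKM in R-Exo, 0.932 in resistant, 0.578 in S-Exo and 0.744 in parental. CA9, a hypoxia-induced form, was listed at 0 in R-Exo and resistant and had 0.693 FPKM in S-Exo and 0.265 in parental. CA5B and CA9 were under 1 FPKM in both resistant and parental and were not compared there. Of 15 family members 6 had a row.

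**Figure D2:**
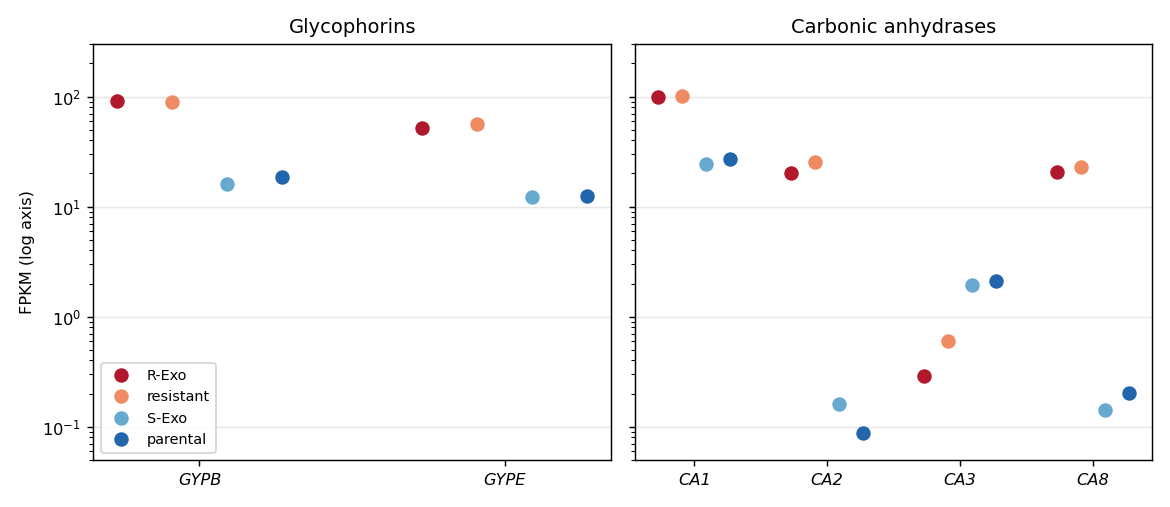
FPKM (log axis) of GYPB and GYPE (left) and of 4 carbonic anhydrase genes (right), 1 point per library and gene, in the order R-Exo, resistant, S-Exo, parental. The points of GYPB and GYPE are spaced alike, whereas CA2 and CA8 span a far wider range than CA1 and CA3 runs the other way.

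A wider set of genes was then described, to see whether the 4 genes stood with other genes of red-cell lists. It held 172 genes in 7 lists (globin chains, haem synthesis and iron handling, membrane and cytoskeleton, blood group and surface glycoproteins, carbonic anhydrases, red-cell enzymes, and erythroid transcription and signalling), of which 39 had a row. Between resistant and parental, 32 of them were compared. Of these, 15 passed the limit upward in resistant and 5 downward, with a median difference of 0.87. Over all compared genes 28.0% were higher and 18.1% lower, with a median of 0.42. Without HBZ, CA2, GYPB and EPB42, 11 were higher and 5 lower. After the median difference of all compared genes was set to 0, 9 were higher and 12 lower, against 12.8% higher and 35.1% lower over all compared genes. The 9 were CA2, GYPB, EPB42, SLC4A1, GYPE, CD44, CA1, CA8 and ACHE. The 12 were TFRC, SLC40A1, DMTN, ADD3, CD36, CA3, PKLR, PRDX2, ALDH1A1, LYL1, IKZF1 and KIT.

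Of 7 compared blood group and surface genes, 5 were higher in resistant than in parental and 1 was lower, against 28.0% and 18.1% of all compared genes. After re-scaling, GYPB, GYPE and CD44 were still counted as higher. Between R-Exo and S-Exo, 3 of 8 were higher and 1 lower, where 23.2% of all compared genes were higher and 21.2% lower. CD44, the hyaluronan receptor that carries the Indian antigens, had 6.97 FPKM in R-Exo, 7.80 in resistant, 1.22 in S-Exo and 1.66 in parental. CD59, a complement inhibitor, was 2.26-fold higher in resistant than in parental (log2 difference 1.09, and 0.67 relative to the median of all genes), and SEMA7A, a semaphorin, 2.57-fold (1.07, and 0.65). CD36, a scavenger receptor of early erythroid cells and other types, was the lower one, with 9.60 FPKM in R-Exo, 8.45 in resistant, 31.2 in S-Exo and 36.2 in parental (log2 difference of resistant minus parental -1.98). BCAM, which carries the Lutheran antigens, had 0.593 FPKM in the resistant library against 1.02 in parental (-0.34). ART4, CR1 and GCNT2 were under 1 FPKM in both of these libraries and were not compared.

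Iron genes lay on both sides. The iron-sulfur cluster protein gene GLRX5 had 117 FPKM in resistant and 51.0 in parental (log2 difference 1.19, and 0.77 relative to the median of all genes), and TFR2, a transferrin receptor that senses iron, had 42.4 and 19.1 FPKM in the same order of libraries (1.11, and 0.69). SLC40A1, the iron exporter ferroportin, was counted as lower, with 6.36 FPKM in R-Exo, 6.95 in resistant, 18.9 in S-Exo and 22.0 in parental. TFRC, the main transferrin receptor of erythroid precursors, had 98.6 FPKM in R-Exo, 114 in resistant, 214 in S-Exo and 224 in parental. Its difference was -0.97 between resistant and parental, just inside the limit, and -1.11 between R-Exo and S-Exo, past it.

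Of 6 compared red-cell enzyme genes, 2 were higher and 2 lower in resistant than in parental, where 28.0% of all compared genes were higher and 18.1% lower. ACHE, the acetylcholinesterase that carries the Yt antigens, had 9.27 FPKM in R-Exo, 9.52 in resistant, 1.39 in S-Exo and 1.60 in parental, 5.94-fold higher in resistant than in parental. ADA, adenosine deaminase, was 2.56-fold higher in resistant than in parental (log2 difference 1.19, and 0.77 relative to the median of all genes). PKLR, the pyruvate kinase of red cells and liver, was 2.51-fold lower at 16.9 FPKM in resistant against 42.3 in parental. ALDH1A1, a retinaldehyde dehydrogenase, was 9.29-fold lower at 2.45 FPKM in resistant against 22.8 in parental. PRDX2, the main peroxiredoxin of red cells, had 192 FPKM in resistant and 375 in parental (log2 difference -0.96), and 178 in R-Exo against 388 in S-Exo (-1.12, counted as lower). PFKM, a phosphofructokinase, had 18.7 FPKM in resistant and 10.2 in parental (0.82).

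Among erythroid regulators, 6 of 41 had a row and 0 of the 4 compared between resistant and parental passed the limit, where 28.0% of all compared genes were higher and 18.1% lower. After re-scaling, LYL1, IKZF1 and KIT were lower there. Between R-Exo and S-Exo, LMO2 was counted as higher and LYL1 (-1.06) and KIT (-1.13) as lower, where 23.2% of all compared genes were higher and 21.2% lower. LMO2, a bridging protein of the GATA1 and TAL1 complex, had 29.7 FPKM in R-Exo, 24.7 in resistant, 10.8 in S-Exo and 14.2 in parental, with a difference of 0.76 between resistant and parental and of 1.38 between R-Exo and S-Exo. LYL1, a relative of TAL1, had 38.4 FPKM in R-Exo, 47.9 in resistant, 81.1 in S-Exo and 81.8 in parental. IKZF1, which encodes Ikaros, had 9.66 FPKM in R-Exo, 11.3 in resistant, 19.5 in S-Exo and 19.9 in parental. The stem cell factor receptor gene KIT had 0.276 FPKM in R-Exo, 0.350 in resistant, 1.80 in S-Exo and 1.39 in parental. TRIM10, a ring-finger gene of late red-cell precursors in mouse, had 0.727 FPKM in R-Exo, 0.738 in resistant and 0.0582 in parental and was listed at 0 in S-Exo. SOX6, a repressor of embryonic globin in mouse, had 0.109 FPKM in R-Exo, 0.189 in resistant, 0.145 in S-Exo and 0.0597 in parental.

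**Figure D3:**
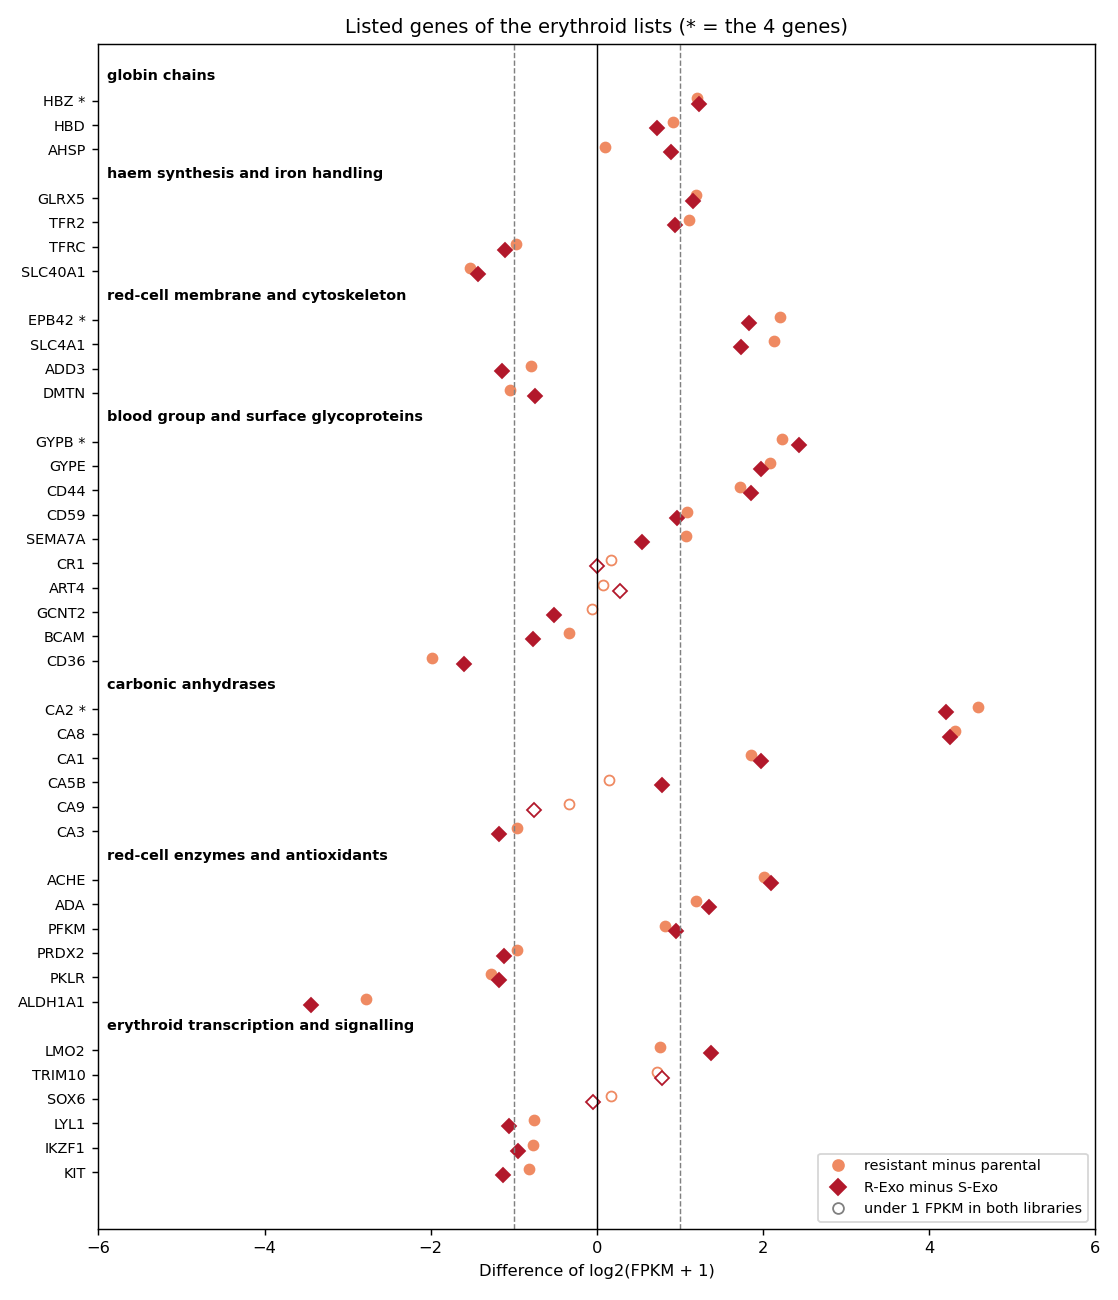
Differences of log2(FPKM + 1) for the 39 listed genes of the erythroid lists, grouped by list, with circles for resistant minus parental and diamonds for R-Exo minus S-Exo; open symbols mark genes under 1 FPKM in both libraries and dashed lines the limits of -1 and 1. The carbonic anhydrases CA2 and CA8 lie farthest to the right and ALDH1A1 farthest to the left, and most lists have members on both sides of 0.

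R-Exo was set against S-Exo, the control that the design names, to compare vesicles of resistant and of sensitive cells. Of 34 compared genes of the lists, 13 passed the limit upward in R-Exo and 10 downward, with a median difference of 0.84. Over all compared genes 23.2% were higher and 21.2% lower, with a median of 0.21. Relative to that median, 12 were higher and 11 lower, where 15.4% of all compared genes were higher and 31.5% lower. The 4 genes differed by 4.20 (CA2), 2.43 (GYPB), 1.83 (EPB42) and 1.23 (HBZ), next to 4.59, 2.23, 2.21 and 1.20 between resistant and parental, a pair that shares no library with this one. Set against parental, R-Exo gave 4.29, 2.26, 1.85 and 1.38 in the same order of genes. All 4 were counted as higher there, as were 23.5% of 2115 compared genes, but this contrast reuses a library of each of the other 2.

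**Figure D4:**
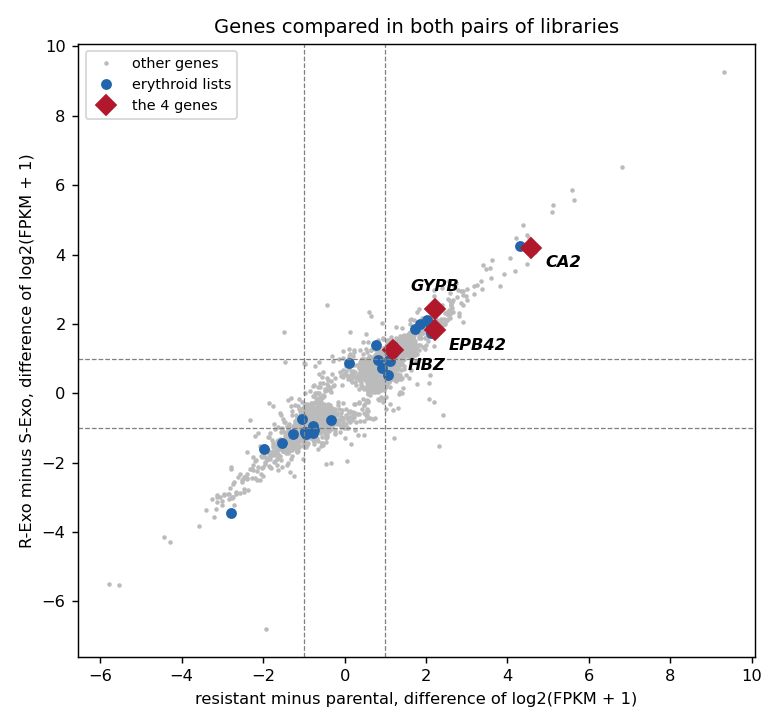
Difference of log2(FPKM + 1) for resistant minus parental (horizontal) and R-Exo minus S-Exo (vertical) in the 1986 genes compared in both pairs; grey dots are other genes, blue circles the other genes of the erythroid lists and red diamonds the 4 genes, with dashed lines at -1 and 1. HBZ lies just past both limits, GYPB and EPB42 near 2 on both axes, and CA2 above 4 on both.

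In the remaining 2 pairs, S-Exo against parental and R-Exo against resistant, none of the 4 genes passed the limit. Between S-Exo and parental, HBZ differed by 0.15, GYPB by -0.17, CA2 by 0.09 and EPB42 by 0.02, the last of these with both libraries under 1 FPKM, as for CA2. Of 29 compared genes of the erythroid lists, 0 were higher and 0 lower, where 1.63% of 1723 compared genes were higher and 1.22% lower. Between R-Exo and resistant, HBZ differed by 0.19, GYPB by 0.03, CA2 by -0.30 and EPB42 by -0.36. Of 30 compared genes of the lists 0 were counted either way, where 1.60% of 1879 compared genes were higher and 1.22% lower. These small differences are not replicate errors, since the libraries carry different labels.

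Markers of other blood lineages also differed between the libraries, some of them against the direction of the 4 genes. Between resistant and parental, 3 of 5 compared megakaryocyte and platelet genes were counted as higher and 1 as lower. Of the compared lymphoid genes 3 of 3 were higher, and of the myeloid genes 2 of 2. Over all compared genes 28.0% were higher and 18.1% lower. Of 24 megakaryocyte and platelet genes 8 had a row, and their FPKM summed to 39.6 in R-Exo, 43.0 in resistant, 12.7 in S-Exo and 12.7 in parental. In that list, the integrin gene ITGA2B had 18.5 FPKM in resistant and 2.06 in parental, the collagen receptor gene GP6 had 20.3 and 4.85, and the tetraspanin gene CD9 had 0.267 and 3.13. Of 21 lymphoid genes 3 had a row, summing to 24.3 FPKM in R-Exo, 24.4 in resistant, 1.42 in S-Exo and 1.09 in parental. They were LEF1 (11.3 FPKM in resistant and 0.115 in parental), CD3D (8.85 and 0.410) and CD22 (4.22 and 0.563). Of 21 myeloid genes 4 had a row, summing to 61.4 FPKM in R-Exo, 60.4 in resistant, 2.14 in S-Exo and 2.14 in parental. In R-Exo and resistant, most of that sum was LCP1, the actin-bundling protein L-plastin, with 56.0 FPKM in R-Exo, 55.5 in resistant, 0.510 in S-Exo and 0.654 in parental. The others of the 3 largest myeloid differences were CD33 (4.71 FPKM in resistant and 0.543 in parental) and AZU1 (0.218 and 0.849). AZU1 was under 1 FPKM in both of these libraries and was not compared. In these lists, THBS1, the matrix protein thrombospondin, was listed at 0 in S-Exo, and no other value was. The part of other lineages in the levels of the 4 genes was not tested, and in a bulk library a change in the share of cells and a change of RNA per cell cannot be told apart.

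The genes whose pattern over the 4 libraries came closest to each of the 4 were found by the root mean square distance between centred log2(FPKM + 1) profiles, among 1601 named genes with at least 1 FPKM in some library. For HBZ they were TCEAL4 (distance 0.043), AVEN (0.043) and ORAI2 (0.045), of which TCEAL4 had 13.5 FPKM in R-Exo, 10.8 in resistant, 4.96 in S-Exo and 4.52 in parental. For GYPB they were CFAP161 (0.042), SCIN (0.061) and PTGS1 (0.074), and CFAP161 had 25.2, 25.4, 4.22 and 4.82 FPKM in the same order of libraries. For CA2 they were SLC25A40 (0.027), FKBP10 (0.063) and PRKCA (0.088), and SLC25A40 had 203, 254, 10.7 and 9.64 FPKM. For EPB42 they were NAV1 (0.039), OR51B4 (0.045) and UGT8 (0.064). OR51B4, an olfactory receptor gene at 5301014 to 5301946 on chromosome 11, near HBD (5232678 to 5243657), had 62.3 FPKM in R-Exo, 73.7 in resistant, 15.6 in S-Exo and 15.5 in parental. The gene models of the globins HBG2 and HBE1, and that of AC104389.4, each overlap OR51B4 by 933 bases on the same strand. Of these models only AC104389.4 had a row. Its log2 difference was 0.73 between resistant and parental, and 1.40 between R-Exo and S-Exo, past the limit. Which of these genes gave the reads of OR51B4 was not tested. None of the 12 nearest genes belongs to the erythroid lists by name. Of the other protein-coding neighbours of GYPB, USP38, a deubiquitinase gene, had 17.6 FPKM in R-Exo, 22.1 in resistant, 7.44 in S-Exo and 8.02 in parental, and the adaptor gene GAB1 had 4.99, 5.00, 1.97 and 1.53 in the same order. AC098588.1, on the other side, had 2.36, 1.21, 1.85 and 1.65 FPKM.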

How the data were processed

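RNA was measured in 4 libraries, 1 for each of R-Exo, resistant, S-Exo and parental, grouped by their titles. Libraries were made from 1 µg of total RNA by poly-T selection with a NEBNext Ultra kit and size-selected near 240 bp, per the labels' protocols. Expression was deposited as FPKM, 1 column per library over 3200 rows, a unit read from the table's name. SAMtools 0.1.18, TopHat2, Picard and GATK appear in the submitters' processing notes with no role stated. The sources used here do not give the genome build, annotation, counting tool or rule of selection. Depth is unknown: among 195 genes above 0 and under 0.15 FPKM in both S-Exo and parental, 188 different log2 ratios were seen (rounded to 3 decimals), which shows no step of whole reads.

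Of the rows, 2288 had an Ensembl identifier, all found in GENCODE release 29 (GRCh38), and 912 had none. Differences were taken on log2(FPKM + 1), with a limit of 1 (a 2-fold difference of FPKM + 1) and a minimum of 1 FPKM in either library, in 5 pairs. No test was possible with 1 library per group. The genes and the lists were chosen with earlier results of these data known. Named were the 4 genes, all listed genes of the 7 erythroid lists and of a list of globin locus neighbours, the 3 nearest profiles of each gene, listed neighbours among 5 coding genes on each side, and up to 3 genes of each other lineage. The settings varied were the pseudocount (0.1), the minimum (none, or 5 FPKM), the limit (2) and the scaling (to a median difference of 0, or by quantiles). Counts without the carbonic anhydrases and without the 4 genes were added after the values had been seen. A gene of these lists is not reported here and is left out of their counts. The code was tested on simulated data. Software was Python 3.11.15, pandas 2.3.3, numpy 2.4.6, Biopython 1.88 and matplotlib 3.10.9.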

Additional observations from a re-analysis of the deposited data

How the results depend on the processing

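CA2, GYPB and EPB42 kept their direction and their side of the limit under the pseudocount of 0.1, re-scaling and quantile normalization in all 5 pairs. HBZ was under the limit between resistant and parental when re-scaled to a median difference of 0 (0.78) and after quantile normalization (0.99), and under quantile normalization also in R-Exo against S-Exo (0.80) and R-Exo against parental (0.99). HBZ is the top value of R-Exo and of resistant, which quantile normalization sets to 1 level by construction, so that their difference is 0.00. The lists without the carbonic anhydrases and without the 4 genes gave counts within 1.5 times the full ones.

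For the erythroid lists, re-scaling gave 9 higher and 12 lower between resistant and parental. A limit of 2 gave 7 higher and 1 lower there, 4 and 1 in R-Exo against S-Exo, and 3 and 1 in R-Exo against parental.

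Counts over all genes moved more, and are given as higher and lower. Between resistant and parental they were 908 and 608 with a pseudocount of 0.1, 276 and 755 re-scaled, 317 and 211 from 5 FPKM up, and 128 and 71 at a limit of 2, against 602 and 390 as deposited. In R-Exo against S-Exo they were 776 and 758, 331 and 678, 254 and 246, and 106 and 76 in the same order of settings, against 499 and 456. In R-Exo against parental they were 769 and 738, 279 and 759, 245 and 256, and 110 and 70, against 497 and 454. In S-Exo against parental they were 81 and 45 with a pseudocount of 0.1, 10 and 8 from 5 FPKM up, and 7 and 2 at a limit of 2, against 28 and 21. In R-Exo against resistant they were 69 and 91, 14 and 12, and 2 and 3 in that order, against 30 and 23. A lower pseudocount widens the differences of low genes and a higher minimum tests fewer genes, by construction; the cause of the other shifts was not tested. No paired analysis was possible because each group had 1 library. Depth is unknown, which limits CA2 and EPB42 most, as their S-Exo and parental levels lie under 1 FPKM.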
